A study of Caenorhabditis elegans with 6 samples.

Results

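Cytochrome P450 (cyp), UDP-glucuronosyltransferase (ugt) and glutathione transferase (gst) genes were followed as targets of small RNAs in gravid adult Caenorhabditis elegans. They were taken as every row of the deposited tables whose name begins with cyp-, ugt- or gst-, which gave 190 of 46761 features. Of these, 81 were cyp, 65 ugt and 44 gst rows. All worms were of strain BCN1050, an N2 background with the unc-119(ed3) III mutation and the integrated transgene crgIs1002, which carries mCherry under the daf-21 promoter with the unc-54 3'UTR, and unc-119(+). The 3 High cultures descended from P0 worms kept at 25 °C and the 3 Low cultures from P0 worms kept at 16 °C. The P0 were moved to 20 °C as L4 larvae, 12 worms to a plate, and the F1 step took 4.5 days at 20 °C. The F2 worms that gave the RNA grew at 20 °C for 72 hours from the L1 stage, 1000 to a plate. A single strain was used, whole worms of many tissues were pooled in each library, and the controls carried the same transgene as the High worms. The comparison asks whether small RNAs over these genes differed between grandoffspring of warm-kept and cool-kept worms.

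P450 enzymes insert oxygen into lipids, steroids and foreign compounds, and need an electron-donating reductase. UDP-glycosyltransferases attach a sugar to such compounds, and glutathione transferases attach glutathione, so that transporters can export the products. In C. elegans much of this chemistry takes place in the intestine, and many of the genes are switched on by toxins or oxidative stress, whereas a few P450 enzymes make lipids for the eggshell. 22G RNAs are copied from target transcripts by RNA-dependent RNA polymerases, and many of them are germline RNAs. The 26G and 21U classes are primary small RNAs, the last of them the piRNAs. A 22G level over a gene is therefore a measure of small RNAs and not of its messenger RNA. Neither strand nor the assignment of multiply mapping reads is given in the sources used here. In whole worms, fewer cells of a type and fewer small RNAs per cell cannot be told apart.

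Values are normalized counts, that is, reads per feature divided by a size factor for each library. Each library held 1380170 to 2685999 reads of the 22G class, 18704 to 37706 of the 26G class and 37630 to 59648 of the 21U class. Low replicate 1 was the shallowest in the 22G class and held the most 26G signal, 57141.5 normalized counts against 17490.9 to 25760.4 in the other libraries, and the library number in its column heading is out of sequence with the other 5. Among genes that mark tissues, 10 of 10 oocyte and germline genes, 6 of 11 intestinal genes and 1 of 10 sperm genes carried enough 22G signal for a test. The 6 intestinal genes were vit-1 to vit-6, of a single family, while elt-2, ges-1, asp-1, ifb-2 and act-5 had means up to 2.38. The sperm gene was spe-41, with a mean of 98.6, so these lists speak for few genes. The summed level of the germline list was 2365.34 to 2505.86 in High and 2458.31 to 2629.06 in Low, that of the intestinal list 96.6 to 125.2 and 116.1 to 140.9, and that of the sperm list 95.8 to 131.02 and 101.5 to 113.2. Of these 17 genes 0 were called by limma-trend, edgeR or DESeq2, and 1 had an unadjusted p under 0.05 in limma-trend, 1 in edgeR and 0 in DESeq2.

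The detoxification genes carried little 22G signal. Together they held 8647 reads of the 6 libraries, 0.0676% of the 22G signal. Of the 190 rows, 133 had at least 1 read and 57 had none. For a test a mean of at least 5 normalized counts was asked, and 25 rows (11 cyp, 5 ugt and 9 gst) had it. These 25 held 92.5% of the signal of all 190. Of the 183 members matched by name to a protein-coding gene of Ensembl release 115, 71.6% had a read and 12.6% reached the minimum. Among all 17948 features so matched, the shares were 68.7% and 39.2%. The same fraction or so had some 22G reads, but fewer of the detoxification genes had many. By level, 72 members had a mean of up to 1 normalized count, 36 lay between 1 and 5, 11 between 5 and 20, 11 between 20 and 100, and 3 above 100. Those 3 were ugt-31, ugt-64 and gst-15.

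**Figure D1:**
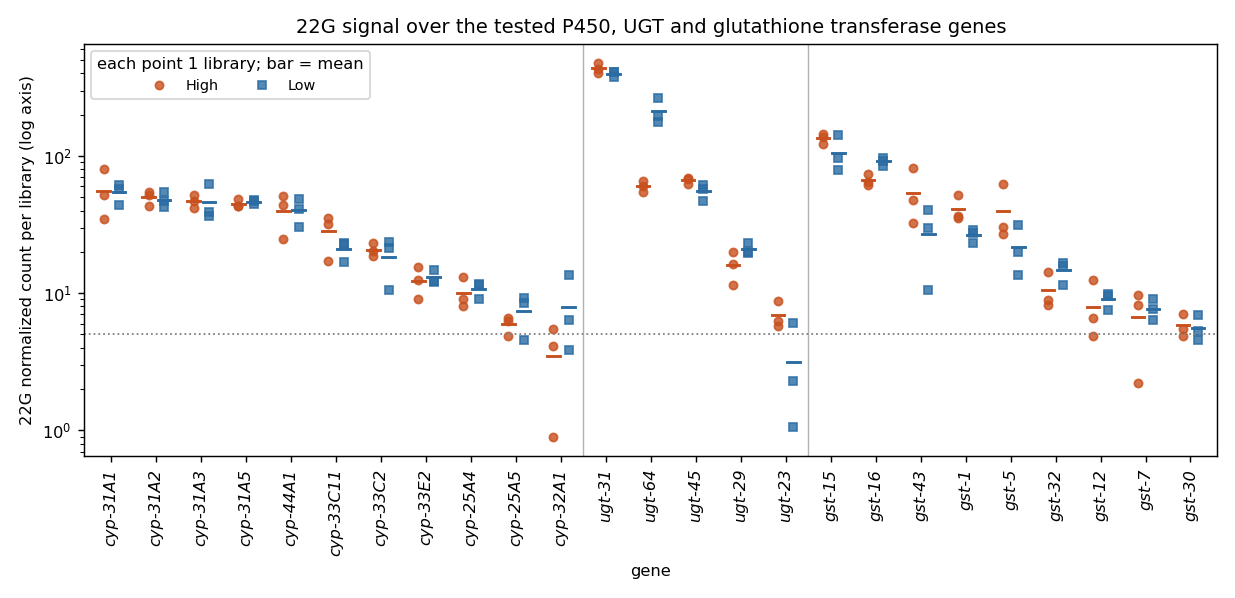
Normalized 22G count (log axis) of the 25 tested genes in each of the 6 libraries, sorted by mean within each family; circles are High, squares Low, bars the group means, and the dotted line marks the minimum mean of 5. ugt-64 stands out, with 3 High libraries between 55.0 and 66.3 and 3 Low libraries between 176 and 267.

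Of the 25 genes 1 was called. ugt-64, which encodes a UDP-glycosyltransferase, had less 22G signal in High. The High libraries, in the order of their replicate numbers as throughout, had 55.0, 60.4 and 66.3 normalized counts, and the Low libraries 197, 267 and 176. Every High library lay below every Low library. The means were 60.6 ± 5.62 and 213 ± 47.5 (SD, n = 3 each), 3.52-fold higher in Low, and the log2 difference, High minus Low, was -1.78 ± 0.16 (SE; limma-trend adjusted p = 1.97e-05). The High values rested on 50, 68 and 81 reads and the Low values on 130, 349 and 166. Over all 9402 tested features 8.3% were called, 5.64% higher and 2.66% lower in High, so 1 call of 25 (0 higher, 1 lower) is close to the background. Among the 250 features called lower, ugt-64 ranked 18 by the size of the log2 difference. edgeR and DESeq2 each called the same 1 member.

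The signal of ugt-64 was not shared with its direct neighbours. By Ensembl release 115 the gene lies on chromosome V and shares 72 exonic bases with C07G3.10 on the opposite strand. C07G3.10 had no 22G read in any library, and str-225 on the other side, a chemoreceptor gene of the str family by name, averaged 0.273 in High and 0 in Low. The gene beyond C07G3.10, C07G3.8, moved the other way. Its High mean was 493 ± 49.5 normalized counts and its Low mean 58.8 ± 2.83 (SD, n = 3), a log2 difference of 3.04 (limma-trend adjusted p = 1.67e-08). C07G3.8 was chosen after its values were seen, as a neighbour of ugt-64.

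The other ugt genes gave no call. ugt-31, the most abundant gene of the 190 with 29.9% of their 22G signal, had 479, 401 and 434 normalized counts in High and 374, 412 and 411 in Low. The groups overlapped, and the log2 difference was 0.13 ± 0.09 with a 95% interval from -0.06 to 0.32 (limma-trend adjusted p = 0.512). ugt-45 had 68.3, 69.3 and 63.0 in High and 47.0, 57.3 and 61.4 in Low, so the High libraries lay just above the Low ones. Its difference of 0.28 (interval -0.05 to 0.61) did not pass (limma-trend adjusted p = 0.398). Groups that do not overlap were found for 4 of the 25 genes, 2 with High above and 2 with Low above, against 22.7% of all tested features (12.8% with High above and 9.97% with Low above). ugt-29 had 19.8, 11.5 and 16.4 in High and 19.7, 19.9 and 23.3 in Low, with overlapping groups and a difference of -0.40 ± 0.27 (SE), or -0.20 without High replicate 2.

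The lowest ugt gene that could be tested, ugt-23, lay right at the minimum with a mean of 5.03 over the 6 libraries. It had 8.81, 6.22 and 5.73 normalized counts in High and 6.06, 2.29 and 1.06 in Low, 30 reads in all, with an interval from -0.13 to 2.34. The other members just over the minimum were the glutathione transferase gene gst-30, at 5.84 ± 1.14 in High and 5.57 ± 1.19 in Low, and the P450 gene cyp-32A1, at 3.495 ± 2.37 and 7.94 ± 5.098 (SD, n = 3). Just under it were ugt-61 at 3.40 ± 0.997 and 5.53 ± 3.18, ugt-52 at 5.92 ± 4.46 and 1.63 ± 1.97, and gst-20 at 3.92 ± 0.865 and 3.14 ± 1.84, with 22 to 28 reads each over the 6 libraries.

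Below the minimum, ugt-22 had reads in High only. The High libraries held 5, 12 and 6 of its reads, or 5.505, 10.7 and 4.91 normalized counts, and the Low libraries 0. As a floor, 3 counts over the Low libraries together were taken, or 1.03 normalized counts. The High mean of ugt-22 was 6.82 times this floor, and 5.06 times without High replicate 2. The counting error of the High reads is not part of these ratios. Floors and counting intervals cover counting error only. When every feature with a read was tested, limma-trend gave ugt-22 an adjusted p of 0.00126 and called 5.02% of 17873 features. ugt-22 was singled out with its values in view. Of the 8471 features with a read under the minimum, 1.02% likewise had reads in all High libraries and in no Low library. Among the members cyp-14A4 did so too, with 5 reads in High. By Ensembl release 115 the exons of ugt-22 overlap those of srz-29 on the opposite strand, which had no 22G read, and 5 annotated piRNA loci. In all 19 piRNA loci lie within ugt-22, and 0 of them had a 21U read under its own name. The gene C08F11.7 on its other side fell, from 903 ± 29.7 in Low to 638 ± 95.8 in High (log2 difference -0.51, limma-trend adjusted p = 0.00709), and it too was chosen after its values were seen, as a neighbour of ugt-22.

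Of the 108 members with reads but below the minimum, ugt-22 was 1 of 7 whose groups did not overlap, against 5.49% of all such features. The other 6 had 5 to 20 reads each over the 6 libraries. They were cyp-33C8, cyp-14A4, ugt-26 and ugt-62, higher in High, and cyp-13B2 and ugt-28, lower, and all 6 were chosen after their values were seen. With every feature tested, their limma-trend adjusted p ran from 0.127 to 0.857. Of the 108, 80 had fewer than 10 reads in all 6 libraries together and 32 had a single read. With so few reads little can be said of differences in them.

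**Figure D2:**
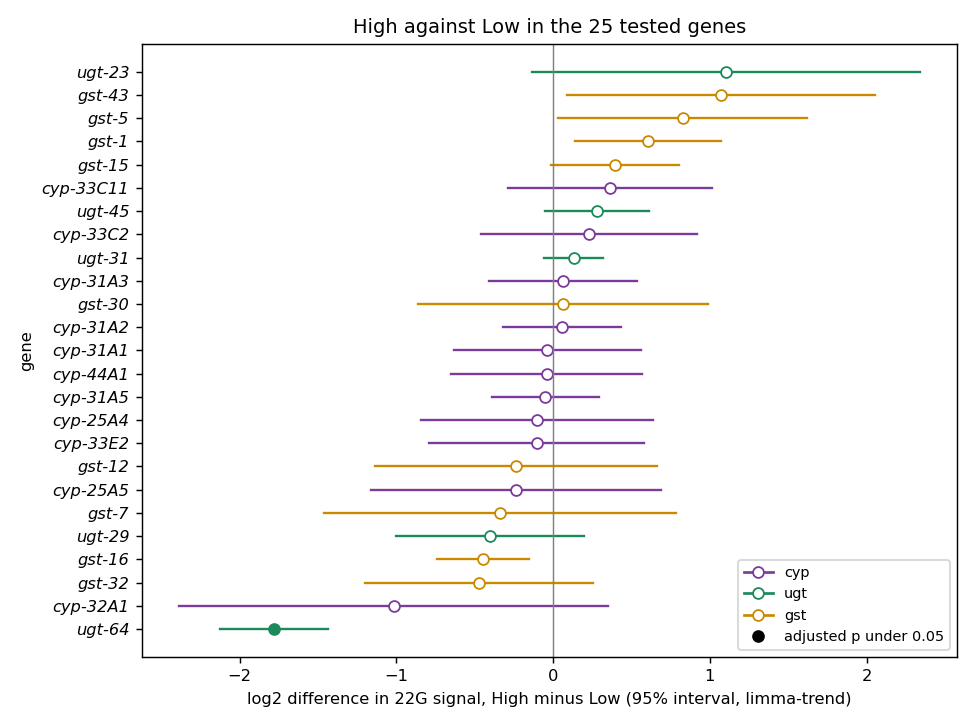
Log2 difference in 22G signal (High minus Low) with its 95% interval from limma-trend for the 25 tested genes, sorted by size and coloured by family; a filled circle marks an adjusted p under 0.05. ugt-64 at -1.78 is the only filled circle, and the intervals widen for genes of low level, as for cyp-32A1, from -2.39 to 0.35.

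The P450 genes gave 0 calls among 11 tested by limma-trend, by edgeR and by DESeq2, and 0 had an unadjusted limma p under 0.05. Over all tested features 8.3% were called and 17.6% had an unadjusted limma p under 0.05. Their median log2 difference was -0.04, against 0.01 for all tested features. The 22G signal was concentrated in the cyp-31A genes, of which cyp-31A2 and cyp-31A3 act with the P450 reductase gene emb-8 in making lipids of the eggshell. These 4 genes had a summed level of 222, 175 and 195 normalized counts in High and 208, 194 and 183 in Low, 197 ± 23.8 and 195 ± 12.3 (SD, n = 3). The groups overlapped, and an exact two-sided permutation test of the difference of 0.01 on the log2 scale gave p = 0.9, where 3 against 3 libraries cannot give less than 0.1.

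Within the cyp-31A genes the levels were nearly even. cyp-31A2 had 51.7, 55.1 and 43.4 normalized counts in High and 54.6, 47.4 and 42.3 in Low. cyp-31A3 had 47.3, 41.7 and 51.6 in High and 62.1, 36.7 and 39.2 in Low. cyp-31A5 had 42.9, 43.5 and 48.3 in High and 47.0, 48.1 and 44.5 in Low. The 3 protein-coding genes thus overlapped one another as well as between groups. Per kilobase of exon in Ensembl release 115, cyp-31A5, cyp-31A2 and cyp-31A3 had levels of 32.7, 30.1 and 29.1 normalized counts over the 6 libraries, and their ranges overlapped. cyp-31A1, a pseudogene in the RefSeq annotation of WBcel235, had as much signal as its coding relatives, with 80.4, 34.6 and 51.6 in High and 43.9, 61.9 and 57.2 in Low. Its coefficient of variation was 41.6% in High, the highest of the 4 there, against 13.6% from counting error alone, while in Low it was 17.1% and that of cyp-31A3 30.5%. The copies are closely related, so how reads were divided among them is uncertain. By Ensembl release 115, cyp-31A2, cyp-31A3 and cyp-31A5 lie on chromosome IV next to memi-3, memi-1 and memi-2, genes named for the meiosis-to-mitosis transition of the egg, which were not analysed here. The 22G differences (High minus Low) of the 4 genes ran from -0.05 to 0.06 on the log2 scale, and the widest of the 4 intervals was from -0.63 to 0.56, for cyp-31A1.

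cyp-44A1, the mitochondrial type of P450 in worms, had 44.04, 24.9 and 50.7 normalized counts in High and 30.3, 41.3 and 48.7 in Low. High replicate 2 was the lowest library and High replicate 3 the highest, so the groups overlapped fully (difference -0.04, interval -0.65 to 0.57). Its exons share 24 bases with npp-24 on the same strand, a nuclear pore gene not analysed here. Among the genes of the cyp-33 group, cyp-33C11 had 31.9, 35.5 and 17.2 in High and 22.7, 16.8 and 23.3 in Low, cyp-33C2 ran from 10.6 to 23.7 over the 6 libraries, and cyp-33E2, which takes part in making eicosanoids in the pharynx, from 9.002 to 15.4. cyp-25A4 ran from 7.99 to 13.2, and cyp-25A5, a RefSeq pseudogene, from 4.55 to 9.17.

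Several P450 subfamilies with 5 or more genes had little signal. Of 5 cyp-35A genes, 4 had a read and 0 reached the minimum, with a highest mean of 1.77 normalized counts. Of 12 cyp-13A genes 7 had a read, of 10 cyp-34A genes 4, and of 5 cyp-14A genes 2, and 0 of these reached the minimum. Of 11 cyp-33C genes 10 had a read and 2 reached it, and of 6 cyp-25A genes 6 and 2, against 11 tested of all 81 cyp rows. The steroid hormone P450 gene daf-9, which the naming rule leaves out, had no read.

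The glutathione transferase genes gave 0 calls among 9 tested by limma-trend, edgeR and DESeq2. At an unadjusted p under 0.05 limma-trend gave 4, of which 3 were higher in High, while edgeR and DESeq2 gave 2 each. By limma-trend the gst share was 44.4%, of only 9 genes, while ugt had 1 of 5 and cyp 0 of 11. Over the 25 genes of all 3 families the unadjusted count was 5, or 20%, against 17.6% of all tested features. The 4 gst genes were gst-16, gst-1, gst-43 and gst-5. gst-16 had 64.96, 61.3 and 74.5 normalized counts in High and 84.9, 92.4 and 97.4 in Low. All 3 High libraries were below the Low ones, and the difference of -0.45 ± 0.13 (interval -0.74 to -0.16) did not pass (limma-trend adjusted p = 0.0704).

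gst-1, a pi-class gene by its worm annotation, had 51.7, 35.5 and 36.8 in High and 27.3, 29.0 and 23.3 in Low. Every High library lay above every Low library, but the difference of 0.61 ± 0.21 did not pass (limma-trend adjusted p = 0.138). Its neighbour cls-2 carried far more 22G signal, with means of 2509.69 ± 69.8 normalized counts for High and 2405 ± 116 for Low, a log2 difference of 0.06. cls-2 was chosen as the adjacent gene on the same strand, after its values were seen.

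gst-43 and gst-5 varied between libraries by more than counting error. gst-43 had 81.5, 47.96 and 32.7 normalized counts in High and 10.6, 29.8 and 40.2 in Low. gst-5, whose product can conjugate the lipid aldehyde 4-hydroxynonenal, had 62.8, 30.2 and 27.0 in High and 13.6, 31.3 and 20.1 in Low. In both genes High replicate 1 was the highest library and Low replicate 1 the lowest, and the groups overlapped. The coefficients of variation were 46.1% in High and 55.9% in Low for gst-43, and 49.5% and 41.3% for gst-5, against 13.8% to 25.5% from counting error. The differences of 1.07 ± 0.44 and 0.83 ± 0.36 did not pass (limma-trend adjusted p = 0.228 and 0.258). Without Low replicate 1, the library with the most 26G signal and the lowest depth, they were 0.53 and 0.55 (limma-trend adjusted p = 0.509 and 0.533). Without High replicate 1 they were 0.73 and 0.46 (limma-trend adjusted p = 0.537 and 0.609).

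gst-15 and gst-16 stand in a row of 9 adjacent gst genes on chromosome II, the longest such row among the 3 families. 7 of the 9 had a read, 3 reached the minimum, and gst-15 and gst-16 held nearly all of the signal. gst-15 had 123, 138 and 145 normalized counts in High and 78.8, 96.3 and 141.8 in Low. Low replicate 3 fell within the High group, so the groups overlapped, and the difference of 0.39 ± 0.19 did not pass (limma-trend adjusted p = 0.311). Without Low replicate 3 it was 0.63 and passed (limma-trend adjusted p = 0.0220), and without Low replicate 1 it was 0.21. Between gst-15 and gst-16, gst-14 averaged 0.367 in High and 0.353 in Low, and gst-12 averaged 7.98 and 9.01, while gst-17 and gst-18 beyond them had no read. The ratio of gst-15 to gst-16 within a library was 1.90, 2.25 and 1.95 in High and 0.929, 1.04 and 1.46 in Low. It did not overlap between groups, and the exact two-sided permutation test gave p = 0.1, the smallest it can give. The ratio was chosen after the values were seen.

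**Figure D3:**
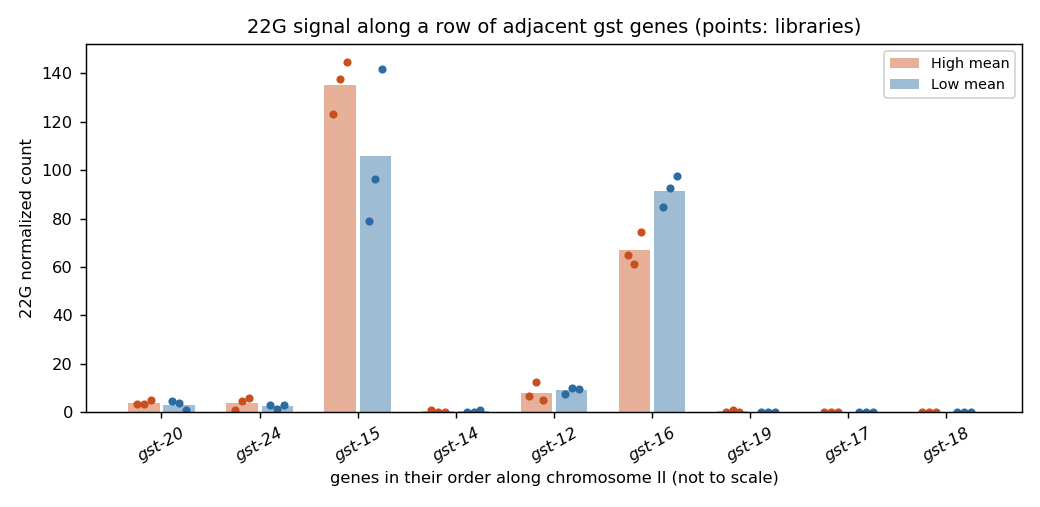
22G normalized count of 9 adjacent gst genes, in their order along chromosome II and not to scale; bars are group means and points the 3 libraries of each group. gst-15 reaches 123 to 145 in High and gst-16 61.3 to 74.5, while the genes between and beside them stay at or under 12.4.

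The remaining tested gst genes were low. gst-32 ran from 8.18 to 16.7 normalized counts over the 6 libraries, gst-12 from 4.91 to 12.4 and gst-7 from 2.20 to 9.77, with overlapping groups in each. gst-4, the reporter gene used for the stress factor SKN-1, had no 22G read in any library, and gst-10, another gene that acts on 4-hydroxynonenal, had 8 in all. Both were chosen after their values were seen.

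Many of the genes stand beside a relative. In Ensembl release 115, 38 cyp, 31 ugt and 24 gst genes stand next to a gene with the same prefix, in 11, 10 and 5 rows. Of these, 1 cyp, 0 ugt and 5 gst genes were tested. The rows with no tested gene included 7 cyp-13A genes, whose summed mean was 1.99 normalized counts, and a row of 7 ugt genes on chromosome V, 0.832. Of the latter, ugt-67 is not in the deposited tables under that name. It is therefore missing from the sum and from the 92 members below. Of the 92 members with such a neighbour 6 were tested, and of the 91 matched members without one 17 were, a difference that was not tested. For gst the adjacent share was like that of the whole family, 5 of 24 against 9 of 44. Tested genes without such a neighbour included ugt-31, ugt-64, ugt-45, cyp-44A1, gst-1 and gst-43. Per kilobase of exon, ugt-31 had the highest level over the 6 libraries, 254 normalized counts, above 90.4% of the 7042 tested protein-coding features. gst-15 with 159 and gst-16 with 113 followed, then ugt-64 with 77.2 and gst-43 with 58.4. The place of ugt-64 differed between the groups, since its level per kilobase was 34.2 in High, below the 78.0 of gst-43, and 120 in Low. The per-kilobase ranges of gst-15 and gst-16 over the libraries overlapped, as did those of ugt-64 and gst-43. The median of the 23 members with a length was 25.8, against 41.3 for the 7042 features, and 7 of the 23 lay above that.

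**Figure D4:**
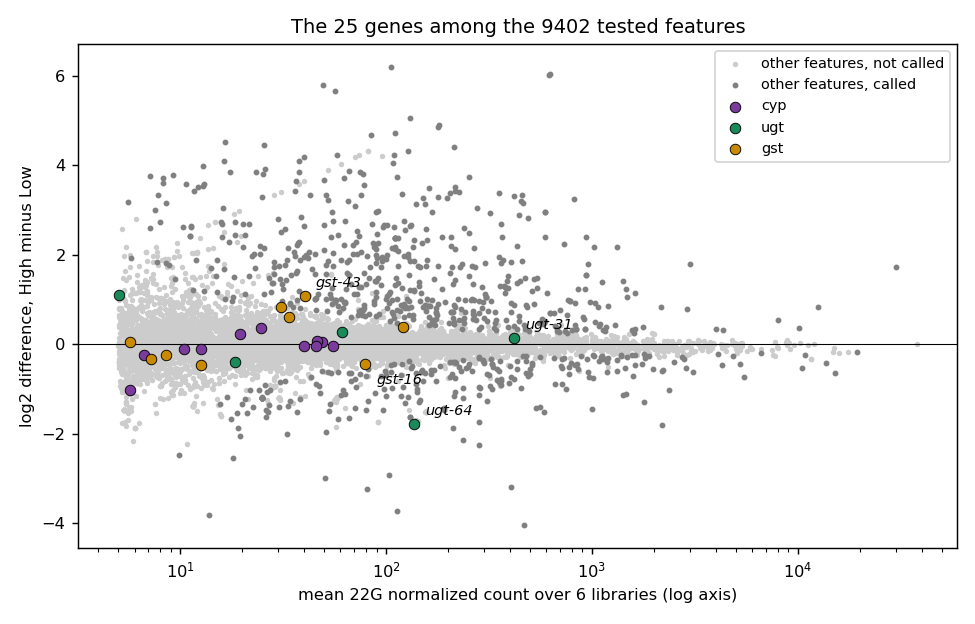
Log2 difference in 22G signal (High minus Low) against the mean normalized count (log axis) for the 9402 tested features, with the cyp, ugt and gst genes as large coloured points. The 24 members that were not called lie within the grey band of uncalled features, and ugt-64 at -1.78 lies among the called ones.

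Summed over whole families, ugt was lower and gst higher in High, and the sign of the ugt sum rested on ugt-64. The 65 ugt rows had 677, 592 and 624 normalized counts in High and 682, 796 and 710 in Low. The 44 gst rows had 446, 374 and 376 in High and 280, 336 and 374 in Low. Neither family overlapped between groups, by narrow gaps. For gst the nearest libraries, High replicate 2 at 373.94 and Low replicate 3 at 373.62, were all but equal, so its separation is marginal. The differences of -0.21 and 0.28 on the log2 scale gave p = 0.1 each in exact two-sided permutation tests, the smallest possible. Without ugt-64 the ugt sum was 622, 532 and 558 in High and 485, 529 and 534 in Low, which overlapped. The difference turned to 0.14 (p = 0.2 by the same exact test). ugt-64 was left out as the called gene, after its values were seen, so no conclusion is drawn from that p. Without Low replicate 1 the gst difference was 0.16. The 81 cyp rows had 395, 327 and 349 in High and 352, 345 and 358 in Low (p = 0.9 by the same exact test), and the sum over the 3 families had means of 1387 ± 117 and 1411 ± 85.95.

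**Figure D5:**
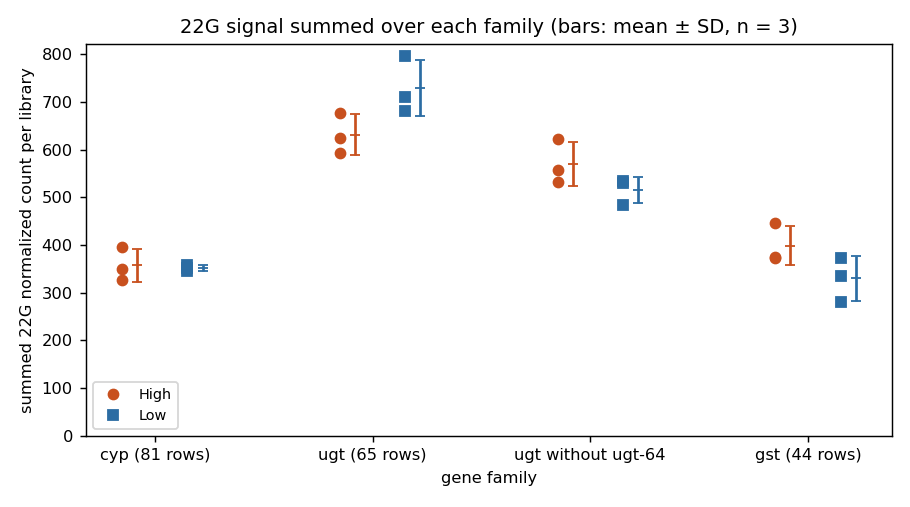
22G normalized counts summed over each family in each library (circles High, squares Low), with the group mean ± SD (n = 3) beside them. ugt is lower in High, from 592 to 677 against 682 to 796, and overlaps between the groups once ugt-64 is left out.

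Levels in the 26G and 21U classes were at the limit of detection. In the 26G class 4 members had a read, 5 reads in all, with 2 for ugt-31 and 1 each for gst-1, ugt-64 and gst-12. In the 21U class 18 members had a read, 39 in all. For ugt-31 these were 4, 1 and 1 in the High libraries and 4, 2 and 1 in the Low, for ugt-64 1, 0 and 0 against 1, 3 and 1, and for ugt-22 1, 0 and 2 against none. 0 members reached the minimum in either class, so 0 were tested. Of all tested features limma-trend called 0% of 272 in the 26G class, where 3 had an unadjusted p under 0.05 and edgeR called 0 and DESeq2 11. In the 21U class it called 0.169% of 592.

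Genes that work with the 3 families were counted from a list of 53. Of these 25 were tested in the 22G class, 2 were higher in High, 0 lower, and the median log2 difference was 0.00. The share called, 2 of 25, is close to the 8.3% of all tested features. The calls were gsto-3, an omega-class glutathione transferase outside the naming rule, and fmo-5, a flavin monooxygenase. gsto-3 had 188, 238 and 252 normalized counts in High and 72.7, 61.1 and 67.7 in Low. Every High library lay far above every Low library, and the difference was 1.73 ± 0.13 (limma-trend adjusted p = 7.36e-06). fmo-5 had High values of 174, 129.7 and 126 and Low values of 89.4, 93.2 and 68.8, which did not overlap, and a difference of 0.76 ± 0.16 (limma-trend adjusted p = 0.0106) that was not called by limma without trend (0.0906).

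The partners of the pathway with other roles gave no call. Of 12 tested regulators 0 were called by limma-trend, edgeR or DESeq2, and 2 had an unadjusted limma p under 0.05, near the 17.6% of all tested features. The coactivator gene cbp-1 had means of 343 ± 10.6 normalized counts for High and 355 ± 9.73 for Low, and the mediator gene mdt-15, which regulates fat and xenobiotic genes, 188 ± 8.27 and 189 ± 9.30 (SD, n = 3). Of 7 tested efflux transporters 0 were called by any of the 3 tools and 0 had an unadjusted limma p under 0.05, with mrp-4 the most abundant at 479 ± 12.6 and 439 ± 20.8. Of 3 genes of glutathione synthesis and reduction 0 were called by any tool and 0 had an unadjusted limma p under 0.05. The P450 reductase gene emb-8 had High values of 75.97, 80.8 and 93.3 and Low values of 80.3, 81.7 and 83.6, with a difference of 0.02 (interval -0.26 to 0.30). As with the cyp-31A genes, its groups overlapped.

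Precision set what could be seen. Among the 25 genes the SE of the log2 difference was 0.09 to 0.44 for the 13 with a mean of at least 30 normalized counts, and 0.27 to 0.62 for the other 12. For 13 of the 25 genes the 95% interval lay within 1 log2 unit of no change on either side. For 11 of the others it reached beyond 1 log2 unit while the gene was not called, so a 2-fold difference was within the interval. For these 11 genes the lack of a call is therefore not a sign of no difference. The spread between libraries exceeded counting error in several genes, not only gst-43 and gst-5. In Low the coefficient of variation of ugt-64 was 22.3%, against 7.43% from counting error, and that of gst-15 30.8% against 10.7%. In High they were 9.28% against 12.5% and 8.11% against 8.37%.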

How the data were processed

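Total RNA (1 µg) was treated with phosphatase and polynucleotide kinase, prepared with a TruSeq small RNA kit, size-selected for inserts between 18 and 36 bp and sequenced as single reads of 50 nt, per the labels' protocols. DESeq2 1.8.1, featureCounts 1.4.6, Bowtie 1.1.1 and cutadapt 1.7.1 are named in the submitters' processing notes. No setting, genome build, annotation, class definition or strand is given in the sources used here. Per class, the deposited signal is a read count divided by the authors' size factor for the library (0.660 to 1.31). 100% of nonzero values were whole multiples of 1 read (within 0.01), so whole reads were recovered.

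Features with a mean of at least 5 were tested over the whole table of a class by limma-trend (limma 3.58.1, R 4.3.3) on log2(normalized count + 1), High minus Low, with Benjamini-Hochberg adjustment and a threshold of 0.05. Fold changes on that scale understate those of low genes. Errors are SD, or the SE of limma, with n = 3. The submitters call the replicates biological. Nothing says how far their cultures were kept apart, so p-values measure only the spread between these samples, part of which may be technical. The test was checked on simulated counts. edgeR 4.0.16 and DESeq2 1.42.0 were run on the recovered reads as alternatives, with other pseudocounts, filters and scalings, a replicate block and each library left out. Names were matched to Ensembl release 115 and RefSeq (WBcel235), used only for biotype, exon length, chromosome and neighbours. Figures were drawn with Matplotlib 3.10.9.

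The genes and lists were chosen with earlier results of these data known. By the rule, the named members are those past the threshold, the 5 of each family with the highest mean, the 3 with the smallest p that did not pass, the 3 on either side of the minimum, the 3 highest of the 26G and 21U classes, and, of the partner genes, those past the threshold and the 3 highest. The other genes with values (the remaining tested members, emb-8, daf-9 and those so marked in the text) fall outside it.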

Additional observations from a re-analysis of the deposited data

How the results depend on the processing

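The call of ugt-64 kept its direction and stayed past the threshold under all 16 alternatives, with log2 differences from -1.91 to -1.61 and adjusted p up to 0.0043. The count of called 22G members was 2, with 1 of them higher in High, with no filter (ugt-22 added) and without Low replicate 3 (gst-15 added), so that over the libraries left out in turn it ran from 1 to 2, with 0 to 1 higher. The number of 22G features called was 524 to 897 under the alternatives, against 780. In the 26G class, where limma-trend called 0 features, DESeq2 called 11, and 0 to 1 were called with a library left out. In the 21U class, where it called 1, the number was 0 with the replicate block, 28 with no filter, 2 with a minimum of 20, 2 with TMM scaling and 2 with edgeR, and 0 to 33 with a library left out. The cause was not tested. Under each scaling and pseudocount and without each library in turn, the log2 differences of the ugt and gst sums kept their sign. The largest move was that of gst without Low replicate 1 (0.16 against 0.28). The cyp difference, 0.02, turned to -0.06 without High replicate 1. Of 347 values of the single genes under the alternatives 345 kept their side of the threshold. The other 2 were gst-15 without Low replicate 3 and fmo-5 in limma without trend. Same-numbered High and Low libraries hardly deviated together (correlations 0.034, 0.046 and 0.02, with High replicate 3 closer to Low replicate 2, at 0.038). Whether the numbers pair the cultures cannot be told from correlations this weak. With the replicate block 782 features of the 22G class and the same 1 member were called. In the 26G class the median log2 difference of tested features was -0.53 with the deposited size factors and 0.09 with equal totals, and in the 21U class -0.38 and -0.17. In the 22G class it was 0.01 and -0.003.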
